A study of Mus musculus with 2 samples.

Results

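The type 1 program is taken here as 9 genes: the cytokine Ifng, the transcription factors Tbx21 and Eomes, the receptor and signalling genes Stat4, Il12rb1, Il12rb2 and Il18r1, and the chains of the IFN-γ receptor, Ifngr1 and Ifngr2. They were chosen by name, and all 9 of 9 were listed among the 26981 genes of the data. They were measured by single-cell RNA sequencing of CD45+ cells from visceral adipose tissue (VAT) of wild-type C57BL/6 mice, 15 weeks old and housed under SPF conditions. One group was given normal water (NW) and the other antibiotics in the drinking water (ABX), and the labels do not name the antibiotics. Each group was 1 library of cells selected with magnetic beads, and the number of mice behind a library is not stated in the sources used here. The spread between mice is therefore unknown, no test between NW and ABX was possible, and all intervals are 95% intervals that cover counting error only.

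IFN-γ, encoded by Ifng, is the cytokine that defines type 1 immunity. It is made by NK cells, ILC1, Th1 and CD8+ T cells, and dendritic cells call it forth with IL-12 and IL-18. IL-12 acts through a receptor of the Il12rb1 and Il12rb2 chains, which activates STAT4, and IL-18 acts through the receptor chain IL-18R1. T-bet (Tbx21) and Eomesodermin (Eomes) are related T-box factors that drive Ifng, and Eomes is the factor that separates NK cells from ILC1. The cytokine is then sensed through Ifngr1, which binds it, and Ifngr2, which carries the signal. In lean VAT, NK cells, ILC1 and NKT cells are resident sources of IFN-γ, a cytokine known for opposing regulatory T (Treg) cells and ILC2 in this tissue.

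The proximal promoters of Ifng, its main regulators Tbx21 and Eomes, and the IL-12 receptor chain Il12rb2 are shown because the cytokine, the factors that drive it and the receptor chain that induces it are the genes whose levels are compared most in the results that follow. Each is the 250 bases before the transcription start in RefSeq on GRCm38.p6, written 5′ to 3′ on the strand of the gene. The windows were chr10:118440796-118441045 (+) for Ifng, chr11:97115332-97115581 (−) for Tbx21, chr9:118477939-118478188 (+) for Eomes and chr6:67376189-67376438 (−) for Il12rb2. Capitals mark matches on either strand to the T-box half-site TCACAC or to the STAT motif TTCNNNGAA, which do not overlap here.
Ifng: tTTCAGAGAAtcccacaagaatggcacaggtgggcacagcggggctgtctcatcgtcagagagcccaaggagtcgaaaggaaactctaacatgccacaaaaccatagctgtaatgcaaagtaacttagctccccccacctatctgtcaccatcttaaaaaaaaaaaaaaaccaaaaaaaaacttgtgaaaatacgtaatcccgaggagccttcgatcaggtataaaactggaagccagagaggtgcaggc
Tbx21: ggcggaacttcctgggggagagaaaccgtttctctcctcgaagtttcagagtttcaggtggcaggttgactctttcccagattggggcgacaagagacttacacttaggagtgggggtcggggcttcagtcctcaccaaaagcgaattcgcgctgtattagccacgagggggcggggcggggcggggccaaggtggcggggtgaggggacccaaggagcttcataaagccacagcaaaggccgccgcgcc
Eomes: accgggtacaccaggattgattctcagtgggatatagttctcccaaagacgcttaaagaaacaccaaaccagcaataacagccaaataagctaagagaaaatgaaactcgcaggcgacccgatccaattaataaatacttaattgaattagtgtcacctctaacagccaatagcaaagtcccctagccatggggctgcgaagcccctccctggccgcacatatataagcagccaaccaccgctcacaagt
Il12rb2: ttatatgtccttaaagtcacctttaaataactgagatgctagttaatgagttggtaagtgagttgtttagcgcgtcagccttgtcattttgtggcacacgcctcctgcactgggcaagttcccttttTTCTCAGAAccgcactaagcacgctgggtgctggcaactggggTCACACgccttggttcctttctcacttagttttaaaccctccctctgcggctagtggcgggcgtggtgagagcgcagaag
The Ifng window held 1 STAT motif, whose first base lies 249 bases before the start, and no T-box half-site. The Il12rb2 window held 1 STAT motif at 123 bases and 1 T-box half-site at 80 bases before the start. The Tbx21 and Eomes windows held neither. Of 32851 promoter windows of this length, 12.3% held the half-site and 7.02% held the STAT motif. A match here is a match of letters and no measurement of binding. Among the other members, the windows of Stat4, Ifngr1 and Ifngr2 held neither motif and 1 of 3 annotated starts of Il18r1 held 2 STAT motifs. In GENCODE M21 the genes lie on GRCm38 at chr10:118441046-118445892 (Ifng), chr11:97098071-97115331 (Tbx21), chr9:118478212-118486132 (Eomes), chr1:51987148-52107189 (Stat4), chr8:70808449-70821424 (Il12rb1), chr6:67291318-67376188 (Il12rb2), chr1:40465552-40500854 (Il18r1), chr10:19591949-19610229 (Ifngr1) and chr16:91547072-91565623 (Ifngr2).

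After filters on depth and mitochondrial reads, 12474 of 17662 NW barcodes and 12724 of 17785 ABX barcodes were kept, with a median of 5092 and 3845.5 unique molecular identifiers (UMIs, distinct mRNA molecules) per cell. Both libraries shared 196 kept barcodes. Cells were clustered without the 9 members among the variable genes and named from marker genes, and clusters with no clear name held 15.0% of NW and 16.0% of ABX cells. NK-like cells numbered 266 in NW and 293 in ABX, with the NK receptor gene Ncr1 detected in 83.1% and 75.1% of them and the T cell gene Cd3e in 2.63% and 3.07%. T-like cells (NKT-, CD8+, CD4+, Treg- and γδ T-like) numbered 1379 and 1335, and DC-like cells (cDC1, cDC2 and mature DC) 1618 and 1176. In NKT-like cells Cd3e was detected in 90.5% and 84.4%, Ncr1 in 27.9% and 31.6% and Trdc in 25.9% and 21.7%. Their TCRβ antibody had a median of 14 and 12 counts, against 8 and 7 in NK-like and 41 and 29 in CD4+ T-like cells. Among their 10 leading genes, 3 stood on the NKT list and 3 on the NK list, so this class may be mixed. Markers of other cells were not at 0 in NK-like cells, where the macrophage gene C1qa was detected in 14.3% and 8.87% and the B cell gene Cd79a in 1.88% and 7.51%. Their part in the results was not tested.

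Cluster T6 met the marker rule for ILC1 but is not given that name here, for a reason stated below. It had 102 cells in NW and 206 in ABX. Ncr1 was detected in 78.4% and 70.9% of its cells and Cd3e in 5.88% and 5.83%. All 7 markers that set ILC1 apart from NK cells were higher in cluster T6 than in NK-like cells, and all 8 that set NK cells apart were lower. Over both libraries, Inpp4b stood at 521 CPM (UMIs of the gene scaled to a common total of UMIs of the cells) in cluster T6 against 25.8 in NK-like cells, and Cxcr6, the residency receptor, at 313 against 12.1. Il7r, the IL-7 receptor, stood at 938 CPM against 132, and Gzma, a granzyme of NK cells, at 110.5 against 2787. Because 3 markers of the NK list and 2 of the ILC1 list stood among its 10 leading genes over all cells, it is called by its number. Of these, Ncr1 and Klrb1c stand on both lists. The remaining one, Klra9, was at 959 CPM in NK-like cells and 860 in cluster T6. Among its 10 leading genes over NK-like cells, 4 were ILC1-specific markers and 0 were NK-specific. The antibody for CD44, an activation and memory marker, had a median of 88 counts per cell in NW and 66 in ABX in cluster T6 and of 33.5 and 30 in NK-like cells.

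Among the pooled classes, Ifng mRNA was highest in CD8+ T-like cells, NKT-like cells and cluster T6, lower in CD4+ T-like and NK-like cells, and near background in macrophages, B cells and DCs. CD8+ T-like cells held 210 CPM (95% interval 154 to 280, 47 UMIs in 66 cells) in NW and 115 CPM (75.2 to 169, 26 UMIs in 80 cells) in ABX. In NKT-like cells the levels were 129 CPM (101 to 164) and 111 CPM (90.1 to 135). Cluster T6 held 113 CPM (81.8 to 153, 42 UMIs) and 79.8 CPM (60.1 to 104, 55 UMIs). Each of these intervals overlapped that of its neighbour in both libraries, and those of CD8+ T-like cells and cluster T6 did not overlap in NW and overlapped in ABX. CD4+ T-like cells held 94.98 CPM (82.5 to 109) and 71.3 CPM (60.6 to 83.3), overlapping cluster T6 in both libraries. Within them cluster T0 held 148 and 104 CPM, more than cluster T6. Cluster T9, also pooled there though led by Cd8b1 and Cd8a among others, held 4.56 and 21.8 CPM (1 and 13 UMIs). The CD8+ T-like class was a single cluster, led also by Gzmk and Ccl5. Its order against CD4+ T-like cells thus compares 1 cluster with a mixed pool. Which class was highest also depended on the clustering, as given below. NK-like cells followed at 56.5 CPM (41.8 to 74.7, 49 UMIs) and 37.7 CPM (26.4 to 52.2, 36 UMIs), below the interval of CD4+ T-like cells in both libraries.

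**Figure D1:**
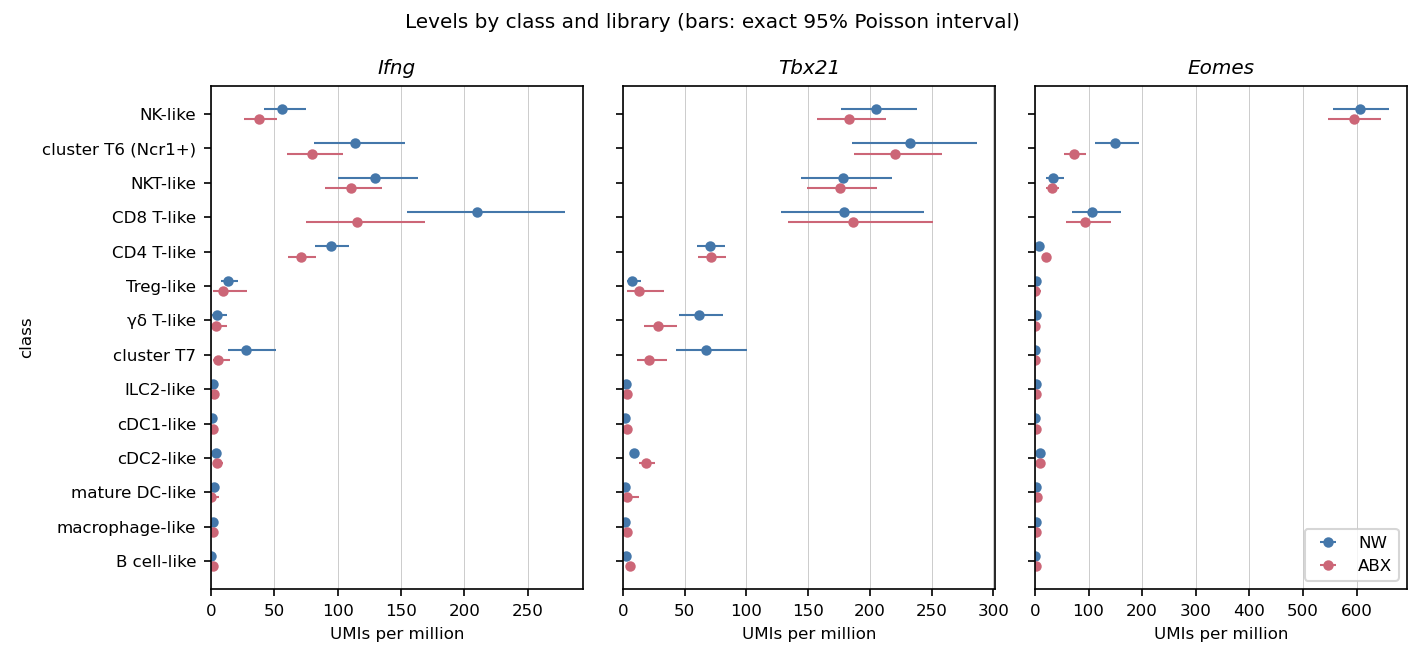
Ifng, Tbx21 and Eomes in each cell class of the NW and ABX libraries, in CPM (UMIs of the gene scaled to the summed UMIs of the class), 1 panel per gene with its own axis from 0. Points are the values and bars the exact 95% Poisson intervals. Ifng runs from 210 CPM in CD8+ T-like cells of NW down to 0.75 CPM in cDC1 of NW, while Eomes stands at 607 and 594 CPM in NK-like cells.

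The share of cells with an Ifng UMI was 34.8% and 20% in CD8+ T-like cells, 25.9% and 23.6% in NKT-like cells, 26.5% and 16.0% in cluster T6, 17.3% and 13% in CD4+ T-like cells and 14.7% and 11.3% in NK-like cells. CD8+ T-like cells thus had the highest share in NW and NKT-like cells in ABX, and NK-like cells the lowest of the 5 in both. Such shares have a background in other classes. An Ifng UMI was found in 0.251% and 0.829% of B cell-like cells (median 4349.5 and 3956 UMIs) and in 0.917% and 0.740% of macrophage-like cells (median 5637 and 4085). The medians of NK-like cells were 3112 and 3006 UMIs. Whether free RNA or doublets gave this background was not tested. With each cell thinned to 1000 UMIs the NK-like shares were 5.18% and 3.81%, and those of cluster T6 10.5% and 6.19%. In the other T-like classes and ILC2-like cells Ifng was low. Treg-like cells held 13.4 and 9.85 CPM of Ifng, γδ T-like cells 4.93 and 4.24 CPM, and ILC2-like cells 1.74 and 2.87 CPM. DCs stood at the level of macrophages (1.94 and 1.95 CPM) or close to it, at 0.75 and 1.53 CPM in cDC1 and 4.13 and 4.87 CPM in cDC2.

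Ifng was sparse within every class. Of all cells, 398 in NW and 376 in ABX held an Ifng UMI, of which 257 and 265 held only 1. Cells with 5 or more numbered 19 and 9, and the highest single cell held 8 UMIs in NW and 11 in ABX.

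Tbx21, the Th1 and NK regulator T-bet, was spread evenly over the type 1 lymphocytes. Its level was 205 CPM (176 to 238) in NW and 183 CPM (157 to 213) in ABX in NK-like cells, and 232 CPM (186 to 287) and 221 CPM (187 to 259) in cluster T6. CD8+ T-like cells held 179 and 186 CPM and NKT-like cells 178 and 176 CPM, and the intervals of all 4 classes overlapped in both libraries. CD4+ T-like cells were lower at 70.9 and 71.7 CPM. γδ T-like cells stood at 61.6 CPM in NW and 28.3 CPM in ABX. Cluster T7, TCRβ+ cells that fitted no class and were led by Il18r1, Tcrg-C2 and Ret, held 67.3 and 21.2 CPM. Treg-like cells held 7.55 and 13.1 CPM, against a background of 2.78 and 5.98 CPM in B cell-like cells.

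Eomes, in contrast, was concentrated in NK-like cells. They held 607 CPM (556 to 661, 526 UMIs) in NW and 594 CPM (546 to 645, 567 UMIs) in ABX, with a UMI in 75.2% and 72.4% of cells. Cluster T6 held 149 CPM (112 to 193) and 72.6 CPM (53.9 to 95.7), in 15.7% and 13.1% of cells, and 1 NW cell alone held 18 of its 55 UMIs. CD8+ T-like cells held 107 and 93.0 CPM and NKT-like cells 33.8 and 31.4 CPM. CD4+ T-like cells held 7.73 and 21.5 CPM on 17 and 48 UMIs, against 0.463 and 2.88 CPM in B cell-like cells. In γδ T-like cells and cluster T7 Eomes was at the edge of detection. A single UMI was counted in the 217 γδ T-like cells of NW, and 0 of 223 cells in ABX had one, which at a limit of 3 cells allows a share of cells with a UMI of up to 1.35%. In cluster T7, 0 of 85 cells in NW and 0 of 191 in ABX had a UMI, which by the same limit allows up to 3.53% and 1.57%. These limits do not bound the share of cells that express the gene.

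Eomes, more than Tbx21, divided NK-like cells from cluster T6. A Tbx21 UMI, with or without Eomes, was held by 105 of 266 NK-like cells and 56 of 102 cells of cluster T6 in NW. In ABX it was held by 126 of 293 and 95 of 206. In NK-like cells, 28.6% in NW and 31.4% in ABX held UMIs of both Tbx21 and Eomes, 46.6% and 41.0% of Eomes only, and 10.9% and 11.6% of Tbx21 only. In cluster T6, 48.0% and 41.3% held Tbx21 only and 8.82% and 8.25% Eomes only, with both in 6.86% and 4.85%. NKT-like cells resembled cluster T6, with Tbx21 only in 38.1% and 36.5%. A cell without a UMI at this depth may still express the gene.

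Over NK-like cells and cluster T6 together, 39.9% of the Ncr1+ cells in NW (120 cells) and 50.8% in ABX (186 cells) had no Eomes UMI, and 68 and 125 of these lay in cluster T6. Ifng in the Ncr1+ cells without Eomes was 95.4 CPM (67.5 to 131) in NW and 80.7 CPM (60.1 to 106) in ABX. In those with Eomes it was 63.5 CPM (45.3 to 86.4) and 30.8 CPM (18.8 to 47.6). The intervals overlapped in NW and did not overlap in ABX.

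Among NK-like cells, those with an Ifng UMI held Tbx21 more often. Tbx21 was detected in 59.0% (23 of 39) of Ifng+ and 36.1% (82 of 227) of Ifng- NK-like cells in NW, and in 63.6% (21 of 33) against 40.4% (105 of 260) in ABX. The intervals overlapped narrowly in both libraries (42.1 to 74.4 against 29.9 to 42.7 in NW, 45.1 to 79.6 against 34.4 to 46.6 in ABX). At equal depth of 1000 UMIs the shares were 26.4% against 15.5% in NW and 27.3% against 15.9% in ABX. Eomes did not show this split, at 74.4% against 75.3% in NW and 63.6% against 73.5% in ABX. In CD4+ T-like cells Tbx21 was found in 38.7% of Ifng+ and 15.8% of Ifng- cells in NW, and in 29.4% against 16.2% in ABX. Il12rb2, the IL-12 receptor chain of Th1 cells, was found there in 13.2% against 3.16% and in 12.9% against 6.15%. These CD4+ T-like shares pool cluster T0 with clusters T8 and T9. Cluster T0 had 99 of the 106 Ifng+ cells in NW and 78 of 85 in ABX. It also held 150 of 156 and 139 of 160 Tbx21 UMIs. Shares within cluster T0 were not measured. In cluster T6 (51.9% against 56.0% in NW, 51.5% against 45.1% in ABX), NKT-like cells (39.5% against 44.95%, 45.2% against 37.8%) and CD8+ T-like cells (34.8% against 39.5%, 37.5% against 40.6%) the Tbx21 shares differed by less or in the other direction. Cells of 1 library are not replicates, so these shares describe the libraries.

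The signalling genes that connect IL-12 and IL-18 to Ifng had their own distributions. Stat4, the transducer of IL-12, was high in all type 1 lymphocytes and also in mature DCs. NK-like cells held 397 CPM in NW and 382 CPM in ABX, cluster T6 held 327 and 390 CPM, NKT-like cells 339 and 314 CPM and CD8+ T-like cells 250 and 270 CPM. Mature DCs held 464 and 406 CPM with a UMI in 51.9% and 58.1% of cells, while cDC1 held only 5.66 and 6.11 CPM and cDC2 64.9 and 63.3 CPM. ILC2-like cells, which make type 2 cytokines, held 185 and 214 CPM, and Treg-like cells 134 and 158 CPM.

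Il12rb2, the inducible chain of the IL-12 receptor, was highest in the Ncr1+ cells and NKT-like cells. Cluster T6 held 127 CPM in NW and 135 CPM in ABX, NK-like cells 112 and 109 CPM and NKT-like cells 95.6 and 78.4 CPM, and of their intervals only those of cluster T6 and NKT-like cells in ABX did not overlap. CD4+ T-like cells were lower at 20 and 29.6 CPM, and Treg-like cells held a single UMI in each library. Il12rb1, the chain shared with the IL-23 receptor, was distributed otherwise. Its levels were 62.9 and 45.2 CPM in γδ T-like cells and 56.1 and 68.3 CPM in cluster T7, against 20.8 and 16.8 CPM in NK-like cells and 8.10 and 20.3 CPM (3 and 14 UMIs) in cluster T6.

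Il18r1, the ligand-binding chain for IL-18, followed another pattern. It was 1118 CPM in NW and 1415 CPM in ABX in γδ T-like cells and 1338 and 1488 CPM in cluster T7, which it also leads. NK-like cells held 791 and 770 CPM with a UMI in 85.7% and 83.3% of cells, and cluster T6 held 497 and 360 CPM with a UMI in 56.9% and 45.6%. NKT-like cells stood at 309 and 297 CPM and CD4+ T-like cells at 221 and 172 CPM. ILC2-like cells held 54.0 and 53.5 CPM, and cDC1 3.42 and 6.26 CPM.

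**Figure D2:**
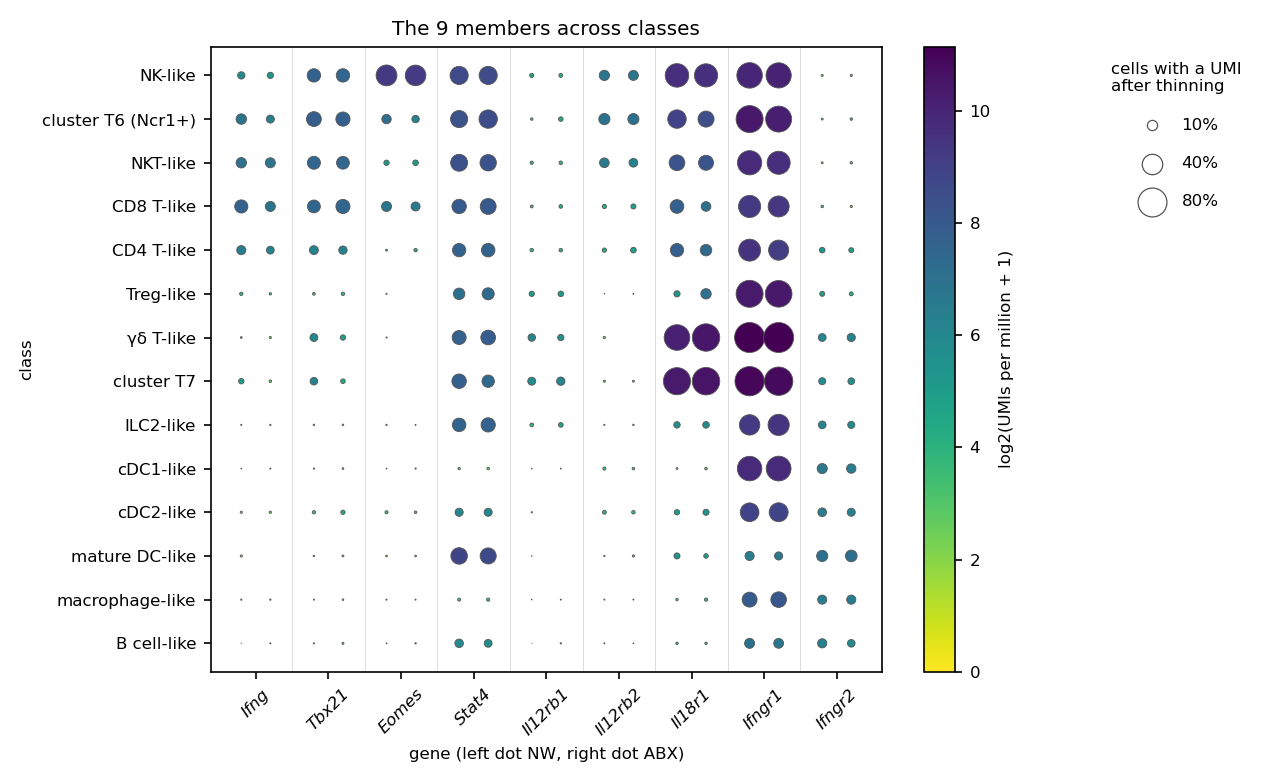
The 9 members (horizontal axis) in each cell class (vertical axis), with the left dot for NW and the right dot for ABX, coloured by log2(CPM + 1) and sized by the expected percent of cells in which the gene is detected at a depth of 1000 UMIs. Eomes has its large dots in NK-like cells, at 607 and 594 CPM, while Ifngr1 is at 88.6 CPM or more in every class shown.

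The receptor of IFN-γ divided into a chain found everywhere and a chain with a restricted distribution. Ifngr1 was highest in γδ T-like cells at 2262 CPM in NW and 2259 CPM in ABX and in cluster T7 at 1986 and 1834 CPM. Cluster T6 and Treg-like cells followed, at 1356 and 1180 CPM and at 1345 and 1355 CPM, then NK-like cells at 995 and 1068 CPM. cDC1 held 902 and 913 CPM, with a UMI in 98.0% and 98.8% of cells. Macrophages were lower at 252 and 282 CPM, and mature DCs held 88.6 and 98.5 CPM, near plasma cells at 80.2 and 73.1 CPM.

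Ifngr2, the signal-carrying chain, had another order. Mature DCs held 133 CPM in NW and 141 CPM in ABX, neutrophils 122 and 208 CPM and cDC1 106 and 92.5 CPM, with macrophages at 88.5 and 92.2 CPM and cDC2 at 87.0 and 72.5 CPM. The cells with the most Ifng held almost none. NK-like cells had 4 and 6 Ifngr2 UMIs (4.61 CPM, 1.26 to 11.8, and 6.29 CPM, 2.31 to 13.7), cluster T6 had 2 and 7, NKT-like cells 2 and 6 and CD8+ T-like cells 2 and 1. γδ T-like cells and ILC2-like cells kept 61.6 and 72.1 CPM and 60.1 and 55.0 CPM, and CD4+ T-like cells 34.99 and 30.04 CPM. Over 15 classes in both libraries (30 points), the Pearson correlation of Ifngr2 on log2(CPM + 1) was -0.785 with Ifng, -0.811 with Tbx21 and -0.804 with Eomes, as a description of points that share 2 libraries.

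**Figure D3:**
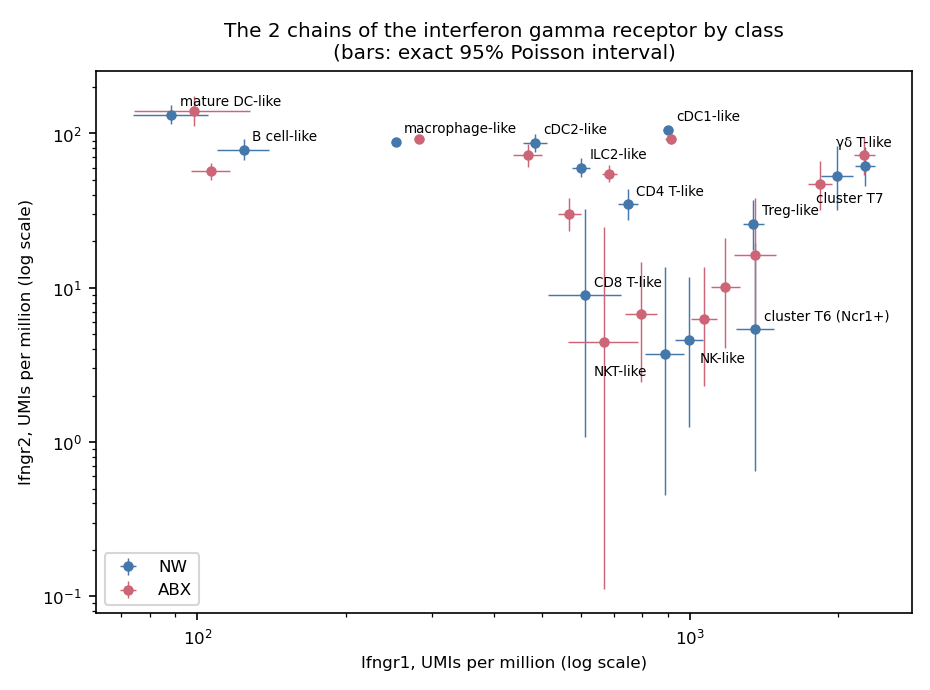
Ifngr2 (vertical axis) against Ifngr1 (horizontal axis) in each cell class of NW and ABX, both in CPM on log axes, with bars for exact 95% Poisson intervals. NK-like cells, cluster T6, NKT-like and CD8+ T-like cells lie lowest, with at most 10.2 CPM of Ifngr2, and mature DCs lie at the upper left, at 88.6 and 98.5 CPM of Ifngr1.

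T-like cells were the largest named source of Ifng mRNA among the CD45+ cells. They held 51.3% (47.4 to 55.1) of all Ifng UMIs in NW and 50.7% (46.5 to 54.9) in ABX, and CD4+ T-like cells alone 31.1% and 27.8%. Within these, cluster T0 held 29.4% and 24.8% of all Ifng UMIs in 3.15% and 3.28% of the cells. NK-like cells and cluster T6 together held 13.5% (11.0 to 16.3) in NW and 15.9% (13.01 to 19.2) in ABX. NKT-like cells held 10.3% and 17.3% and CD8+ T-like cells 6.98% and 4.55%. Macrophages, at 46.3% and 39.3% of the cells, held 10.3% and 7.69% at their low level per cell. Clusters without a name held 19.5% and 17.0%. The sources of the T-box factors differed from those of Ifng. NK-like cells and cluster T6 held 71.2% and 65.7% of the Eomes UMIs but, separately, 20.2% and 9.77% of the Tbx21 UMIs in NW and 15.7% and 13.6% in ABX.

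**Figure D4:**
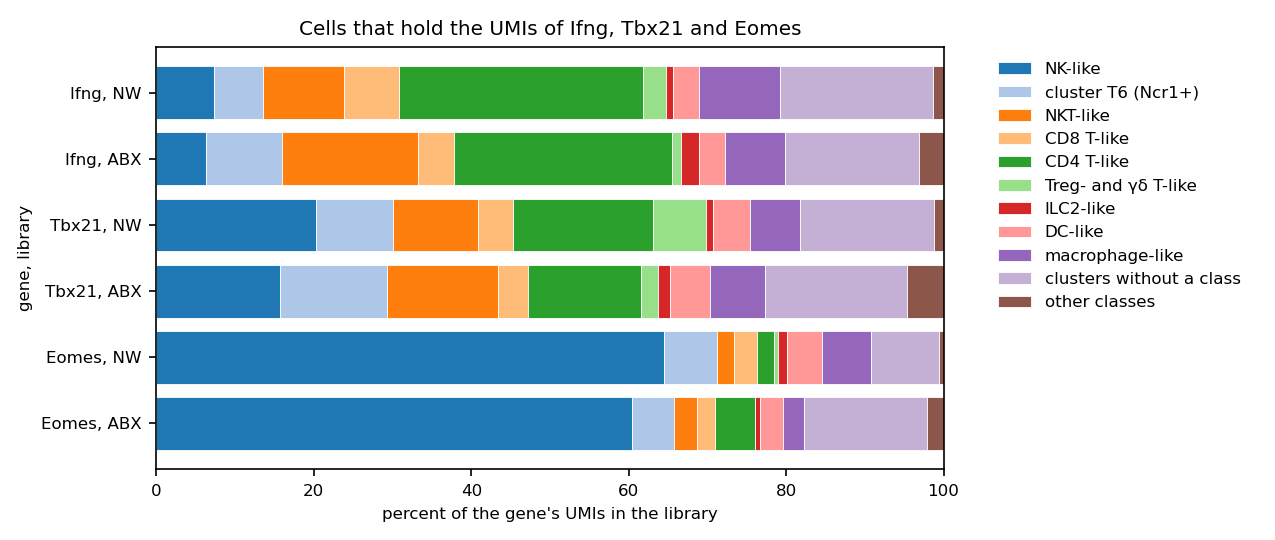
Share of all UMIs of Ifng, Tbx21 and Eomes that each cell class holds, in percent of the UMIs of the gene in the NW and in the ABX library. T-like cells hold 51.3% and 50.7% of Ifng, and NK-like cells hold 64.5% and 60.4% of Eomes.

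The comparison of ABX with NW addressed whether the type 1 program differs in VAT when the microbiota is depleted. Ifng was lower in ABX in each of the 5 classes that carry it, by different amounts, while its level over all cells was nearly the same in CPM. In NK-like cells it was 56.5 CPM in NW and 37.7 CPM in ABX, a log2 ratio of -0.58 (-1.25 to 0.07). In cluster T6 the ratio was -0.51 (-1.11 to 0.11) and in NKT-like cells -0.22. CD8+ T-like cells had -0.87 (-1.62 to -0.15) and CD4+ T-like cells -0.41 (-0.72 to -0.11), and only these 2 intervals lay below 0. Over pooled T-like cells the ratio was -0.06 (-0.30 to 0.17), from 69.5 to 66.5 CPM, and over all cells 0.07 (-0.09 to 0.24), from 8.95 to 9.41 CPM. Counted per 1000 cells, NW held 53.95 and ABX 44.95 Ifng UMIs, in libraries of unlike depth. The class sizes also differed: NW and ABX held 147 and 263 NKT-like cells, 102 and 206 cells of cluster T6, and 336 and 115 Treg-like cells, which hold little Ifng. The class sizes of NW combined with the UMIs per cell of ABX gave 38.4 Ifng UMIs per 1000 cells. The class sizes of ABX with the UMIs per cell of NW gave 62.4. These values carry the difference in depth, and a cause was not tested.

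Within NK-like cells the rest of the program was close between the libraries. The log2 ratio of Eomes was -0.03 and none of the 7 members with at least 50 UMIs was 1.5-fold higher or lower, against 8.22% of the 5668 genes tested there. Ifng, at -0.58, lay just inside that limit. In cluster T6, 1 of 7 members was past 1.5-fold (10.8% of all genes), which was Eomes, from 149 to 72.6 CPM (log2 ratio -1.03, -1.62 to -0.46). That difference depended on which cells made up the cluster and on few cells. The ratio was 0.043 with the members among the variable genes, 0.14 with clusters from mRNA alone, -0.05 with gates on marker genes, -0.30 with 50 principal components and -0.35 with at most 10% mitochondrial UMIs. Il18r1 was 497 and 360 CPM (-0.47, -0.75 to -0.18) and Ifngr1 1356 and 1180 CPM (-0.20, -0.36 to -0.04) in cluster T6.

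**Figure D5:**
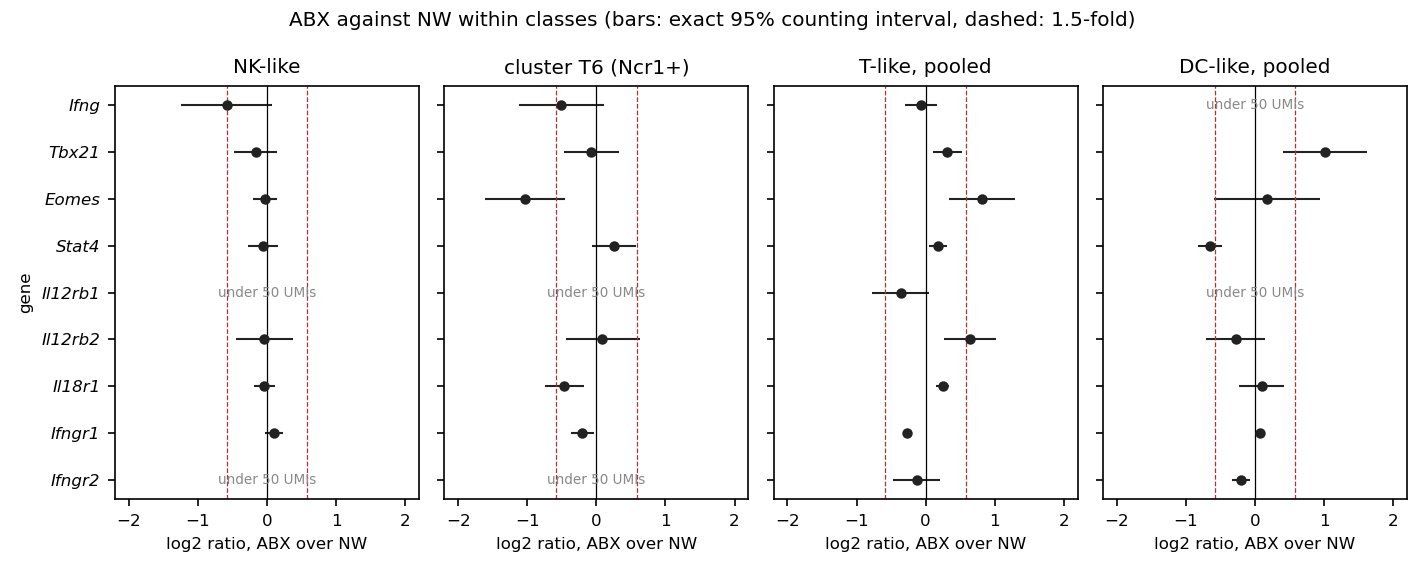
Log2 ratio of ABX over NW for the members in NK-like cells, cluster T6, and pooled T- and DC-like cells, with exact 95% counting intervals, dashed lines at 1.5-fold, and members under 50 UMIs marked as such. Ifng lies below 0 in NK-like cells (-0.58, at the edge of the dashed line) and cluster T6 (-0.51), and Eomes in opposite directions in cluster T6 and T-like cells.

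In pooled T-like cells, 2 of 9 members were past 1.5-fold, where 8.4% of all genes were. Eomes was 12.7 CPM in NW and 22.2 CPM in ABX (log2 ratio 0.81, 0.34 to 1.29) and Il12rb2 21.0 and 32.8 CPM (0.65, 0.27 to 1.02). The make-up of the pool differed as well, as given above, and its part was not tested. By class, Eomes was past 1.5-fold in CD4+ T-like cells (7.73 and 21.5 CPM, log2 ratio 1.48, 0.65 to 2.37), the 1 of 9 members past 1.5-fold there (9.45% of all genes). That difference lay in cluster T9, with 2 UMIs in 57 NW cells and 34 UMIs in 162 ABX cells, while cluster T0 held 14 and 13 UMIs and cluster T8 held 1 and 1. Cluster T9 was led by Cd8b1, Lef1 and Cd8a among others, genes of CD8+ and resting T cells. With the antibodies also used at the second level of clustering the CD4+ ratio of Eomes was 0.10. Ifngr1 in pooled T-like cells was 1148 and 950 CPM (-0.27, -0.33 to -0.22).

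Other T cell classes showed single differences. In γδ T-like cells 1 of 6 members was past 1.5-fold (9.88% of all genes): Tbx21, at 61.6 and 28.3 CPM on 50 and 20 UMIs (log2 ratio -1.12, -1.95 to -0.35). Under other processing choices that ratio ran from -1.40 to -0.51, the latter inside 1.5-fold. In Treg-like cells it was 1 of 4 (18.5%): Il18r1, at 38.6 and 131 CPM on 46 and 40 UMIs (1.77, 1.12 to 2.41). CD8+ T-like cells had 2 of 5 (14.4%), Ifng and Il18r1 (219 and 137 CPM, -0.68, -1.37 to 0.003), and NKT-like cells 0 of 6 (9.25%). Cluster T7 had 0 of 5 (11.6%), all with at least 50 UMIs; its Tbx21 rested on 24 and 14 UMIs. ILC2-like cells had 1 of 5 (8.76%), Il12rb1, at 12.2 and 23.4 CPM (0.94, 0.41 to 1.49). Cluster T0 of the CD4+ T-like cells had 1 of 6 (8.86%), Il12rb2, at 29.9 and 48.2 CPM (0.69, 0.10 to 1.29), beside an Ifng of 148 and 104 CPM.

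In pooled DC-like cells, the cells that receive IFN-γ and supply IL-12, 2 of 7 members were past 1.5-fold, against 6% of all genes. Tbx21 was 3.11 and 6.24 CPM (log2 ratio 1.007, 0.40 to 1.62), close to the level in B cell-like cells, which was also higher in ABX (2.78 and 5.98 CPM). With the B cell level subtracted the ratio was -0.31. Stat4 was 68.2 and 43.3 CPM (-0.66, -0.83 to -0.48), and mature DCs, which hold most of it, numbered 181 in NW and 74 in ABX, with levels of 464 and 406 CPM. Ifngr1 was 729 and 770 CPM (0.08, 0.03 to 0.12), and by class it was 902 and 913 CPM in cDC1, 485 and 468 CPM in cDC2 and 88.6 and 98.5 CPM in mature DCs. By class, 1 of 5 members was past 1.5-fold in cDC1 (4.56%), which was Il18r1, 1 of 6 in cDC2 (8.25%), which was Tbx21 (9.004 and 18.4 CPM, 1.03, 0.23 to 1.85, and 0.18 with clusters from mRNA alone), and 1 of 4 in mature DCs (13.7%), Il18r1 at 45.3 and 29.9 CPM.

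Macrophages had 2 of 8 members past 1.5-fold (10.2% of all genes), Tbx21 at 1.55 and 3.45 CPM (log2 ratio 1.16, 0.64 to 1.68) and Il18r1 at 6.72 and 11.7 CPM (0.80, 0.54 to 1.06). With likely doublets removed the Il18r1 ratio was 0.43. Both are lymphocyte genes at low level there, and B cell-like cells, where 0 of 4 members were past 1.5-fold (13%), held 2.78 and 5.98 CPM of Tbx21 and 12.5 and 9.52 CPM of Il18r1. Over all cells, 3 of 9 members were past 1.5-fold, against 15.9% of all genes. They were Tbx21 (11.7 and 18.3 CPM, 0.65), Il12rb1 (3.58 and 6.11 CPM, 0.77) and Il18r1 (56.0 and 84.9 CPM, 0.60), all higher in ABX. In such sums more cells of a type and more RNA per cell cannot be told apart.

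The other genes of the pathway were described by lists. Of 13 type 1 effectors, 10 were measured (at least 50 UMIs) in NK-like cells, of which 3 were past 1.5-fold and all 3 were lower in ABX, with a list median of -0.19 against -0.02 for all genes. They were the chemokines Ccl3 (411 and 189 CPM, log2 ratio -1.12, -1.39 to -0.86), Ccl4 (406 and 217 CPM, -0.90) and Xcl1 (437 and 238 CPM, -0.88). Prf1, the pore-forming perforin, was 666 and 546 CPM (-0.29). In cluster T6, 12 were measured and 4 were lower, with none higher: Ccl4 (535 and 244 CPM, -1.13), Ccl3 (381 and 224 CPM, -0.77), Gzmb (435 and 282 CPM, -0.63) and Fasl, the death ligand (91.9 and 61.0 CPM, -0.59). In pooled T-like cells 1 of 13 was lower, Gzmb (91.9 and 53.7 CPM). NKT-like cells had 2 of 12 higher and 1 lower, with Gzma at 5.63 and 90.7 CPM on 3 and 81 UMIs, Gzmb at 97.5 and 163.5 CPM (0.75, 0.28 to 1.23) and Ccl4 at 142.5 and 87.4 CPM. In DC-like cells 2 of 10 were higher, Gzma (2.81 and 9.59 CPM) and Gzmb (1.55 and 5.46 CPM). In macrophages 5 of 13 were higher, Xcl1 (3.18 and 10.9 CPM) among them. Xcl1 there was far below its level in NK-like cells, as was Gzmb in DC-like cells below that in cluster T6. The part of free RNA or doublets in these low levels was not tested. Of all genes tested, 8.22% were past 1.5-fold in NK-like cells, 10.8% in cluster T6, 8.4% in T-like, 9.25% in NKT-like and 6% in DC-like cells and 10.2% in macrophages.

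The cytokines that induce Ifng were not measurable in NK-like cells or cluster T6, where 0 of 7 reached 50 UMIs. In pooled T-like cells 1 of 7 was measured, Ebi3, which was past 1.5-fold and lower (25.4 and 12.4 CPM, log2 ratio -1.04, -1.52 to -0.57), where 8.4% of all genes were past it. In DC-like cells 4 of 7 were measured and none was past 1.5-fold (6% of all genes). Il12b, the shared subunit of IL-12 and IL-23, was 23.7 and 17.1 CPM (log2 ratio -0.47, -0.76 to -0.19), Il15 24.1 and 19.7 CPM, Ebi3 70.9 and 77.8 CPM and Il18 50.6 and 51.6 CPM. Il12b lay almost wholly in mature DCs, at 210.5 and 266 CPM (316 and 151 UMIs, 0.34, 0.05 to 0.62), with 4 and 2 UMIs in cDC1. Of the 3 measured in mature DCs the other two were past 1.5-fold and lower (13.7% of all genes), Il15 at 76.6 and 49.2 CPM (-0.64, -1.29 to -0.03) and Ebi3 at 37.97 and 24.6 CPM (-0.62, -1.58 to 0.24). Il12a, the subunit particular to IL-12, had 5 and 4 UMIs over all DC-like cells. Il27 was higher in macrophages (1.97 and 3.01 CPM), the 1 of 4 measured past 1.5-fold there (10.2% of all genes).

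Of 10 receptor partners, 8 were measured in NK-like cells and 9 in pooled T-like cells, and none was past 1.5-fold (8.22% and 8.4% of all genes). In NKT-like cells (9.25%) 1 of 9 was higher, Irak4 (30.01 and 48.2 CPM), and 1 lower, Il27ra (69.4 and 45.9 CPM). Il18rap, the signalling partner of Il18r1, was 480 and 544 CPM in NK-like cells and 365 and 466 CPM in cluster T6 (log2 ratio 0.35, 0.06 to 0.65), where Il18r1 was lower. Il27ra was the 1 of 7 past 1.5-fold in cluster T6 (35.1 and 53.7 CPM on 13 and 37 UMIs), where 10.8% of all genes were. In DC-like cells (6%) 1 of 10 was higher, Il2rb (19.7 and 42.5 CPM). Also there, 1 was lower, Il18bp, the secreted inhibitor of IL-18 (3.92 and 2.01 CPM).

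Of 12 transcription partners, 10 in NK-like cells and 7 in cluster T6 were measured and none was past 1.5-fold (8.22% and 10.8% of all genes). Zeb2, a factor of NK cell maturation that acts with T-bet, was 101.5 and 71.3 CPM in NK-like cells (log2 ratio -0.51, -0.99 to -0.04). In pooled T-like cells (8.4%) Zeb2 (52.8 and 27.1 CPM) and Prdm1 (61.1 and 40.6 CPM) were lower, 2 of 11. In DC-like cells (6%) Nfil3 (24.5 and 13.3 CPM) and Bhlhe40 (123 and 80.4 CPM) were lower, 2 of 10. Among opposing lineage factors, Foxp3 of Treg cells (318 and 128 CPM, -1.31) and Gata3 of type 2 cells (458 and 270 CPM, -0.76) were lower in pooled T-like cells. The number of Treg-like cells, 336 in NW and 115 in ABX, moved with Foxp3, and its part was not tested.

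Genes of the IFN-γ response were described in receptor-rich cells and in the Ncr1+ cells, which hold little Ifngr2. In macrophages 3 of 17 measured genes were past 1.5-fold (10.2% of all genes) and all were higher in ABX, with a list median of 0.15 against 0.03 for all genes. They were the chemokines Cxcl9 (4.36 and 14.1 CPM, log2 ratio 1.69, 1.41 to 1.98) and Cxcl10 (12.3 and 20.6 CPM) and the feedback inhibitor Socs1 (3.18 and 6.28 CPM). In cDC1 (4.56% of all genes) 3 of 13 were higher, Gbp2 (5.34 and 13.4 CPM), Gbp7 (4.27 and 8.09 CPM) and Cxcl9 (23.4 and 42.4 CPM), and Ido1 was lower (4.92 and 3.21 CPM). In pooled DC-like cells (6%) 3 of 17 were higher and 2 lower, of which Cd274, the gene of PD-L1, was 17.5 and 8.81 CPM. In NK-like cells (8.22%) none of 11 measured was past 1.5-fold, and in cluster T6 (10.8%) 2 of 9 were higher, Socs1 and Gbp2, on 13 and 42 and on 16 and 48 UMIs.

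The genes whose pattern over classes was most like that of the 3 leading members were sought among 12311 genes by Pearson r of log2(CPM + 1) over the same 30 points. For Ifng they were Ms4a4b (0.918), Nkg7 (0.909), Btbd11 (0.906), Lck (0.900) and Cd160 (0.896), with Tbx21 at 0.878. For Tbx21 they were Cd7 (0.915), Klrb1f (0.909), Ms4a4b (0.907), Gm14029 (0.905) and Samd3 (0.904). For Eomes they were Samd3 (0.939), Gzma (0.907), Baiap3 (0.897), Klre1 (0.894) and Prf1 (0.886), of which Gzma, Klre1 and Prf1 were among the markers used to name NK-like cells.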

How the data were processed

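The authors made 1 library per condition with the BD Rhapsody whole transcriptome and AbSeq assays and ran the BD Rhapsody pipeline against mm10. The deposited values are whole-number UMI counts per gene and antibody for each barcode, without normalization. Per the labels, Seurat 3.0.1 and R 3.6.0 were used by the submitters. The number of columns left out was 0.

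From these counts, cells with at least 500 UMIs, at least 200 genes and at most 25% mitochondrial UMIs were kept. NW held 79855126 UMIs and ABX 64801767 in all barcodes. Seurat 5.3.0 in R 4.3.3 clustered the cells on 2000 variable genes, 30 principal components and the antibodies at resolution 0.6, and T and NK cells were clustered again on mRNA, with the 9 members left out of the variable genes. Clusters were named from marker lists if at least 3 markers had 1.5 times the level of other cells and a UMI in 10% of the cluster, and T cell classes also needed a defining gene in 30% of cells. The members, markers and gene lists were chosen with earlier results of these data known, and the naming rule and the second clustering were set after clusters had been seen. Classes needed 50 cells in each library. Doublets were kept, and an alternative removes the 8% of cells with the highest Scrublet score (scanpy 1.11.5).

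UMIs were summed per class and library and given as CPM of the summed UMIs, with exact Poisson intervals. Ratios are ABX over NW, and their exact intervals compare 2 Poisson rates given their sum, and shares of cells carry exact (Clopper-Pearson) intervals. Genes were counted as past 1.5-fold only if NW and ABX together gave 50 UMIs or more in the class. The median log2 ratio of all such genes lay within 0.09 of 0 in every class. Shares at equal depth are the expected shares after thinning to 1000 UMIs, with shallower cells left out. Genes were named by rule: the 9 members in every class, per list and class at most 4 with the largest ratio among genes so counted, and the 5 most alike by Pearson r; Il12a in DC-like cells, Il12b in cDC1 and the markers given for cluster T6 were named after their values were seen. The ratios and the thinning were tested on simulated data. No p-values are given because each condition is 1 library. The barcodes shared by the libraries were left out in an alternative. A few genes of the lists are left out of the text.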

Additional observations from a re-analysis of the deposited data

Results flagged for a closer look

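Tbx21 and Eomes differed between NW and ABX in opposite directions in different cell classes. The log2 ratio of Tbx21 was -1.12 in γδ T-like cells (-1.40 to -0.51 over the alternatives), 1.03 in cDC2 and 1.16 in macrophages. The last 2 lie at low levels, where B cell-like cells held 2.78 CPM in NW and 5.98 CPM in ABX. The log2 ratio of Eomes was -1.03 in cluster T6 and 1.48 in CD4+ T-like cells, and both depended on the clustering. The second lay in cluster T9, led by Cd8b1 and Cd8a among others, with 2 UMIs in NW and 34 in ABX, while cluster T0 held 14 and 13 and cluster T8 held 1 and 1. These differences between classes were not tested, since each condition is 1 library.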

How the results depend on the processing

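The alternatives covered scaling, doublets, filters on UMIs and mitochondrial reads, gates on marker genes, cluster resolution, principal components, the members among the variable genes, clusters from mRNA alone, the B cell-like level as background, depth, and 2 choices made after seeing the data: antibodies at the second level of clustering and removal of shared barcodes. No paired analysis was possible because each condition is 1 library. The log2 ratio of Ifng ranged over the alternatives from -0.79 to -0.45 in NK-like cells, -0.93 to -0.37 in cluster T6, -0.23 to 0.01 in pooled T-like cells and 0.02 to 0.12 over all cells. Without the barcodes found in both libraries no result moved by more than its counting interval. Cluster T6 had no counterpart with antibodies at the second level, and NKT-like cells were then the class with the highest Ifng, Tbx21 and Il12rb2. With gates on marker genes the Eomes ratio in NK-like cells was -0.22 and the share of Ifng UMIs in NK-like cells and cluster T6 was 9.97% in ABX. With likely doublets removed that share was 16.9% in NW, and with the B cell-like level subtracted the Ifngr1 ratio in DC-like cells was 0.13. The ratio of Eomes in cluster T6 turned to 0.043 with the members among the variable genes and to 0.14 with clusters from mRNA alone, and that of Tbx21 in DC-like cells to -0.31 with the B cell-like level subtracted. The share of Ifng+ NK-like cells that held Tbx21, over both libraries, was 61.1%. That share was 48.9% with antibodies at the second level. After thinning to 1000 UMIs, which lowers detection by construction, it was 26.8%. Of 465 alternatives for 41 other ratios, 436 moved by less than the counting interval, 26 by more, and 3 turned direction. The causes were not tested.

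The number of genes past 1.5-fold followed the UMI minimum by construction. At 50 UMIs it was 466 in NK-like cells, 434 in cluster T6, 813 in T-like and 639 in DC-like cells. It was 1230, 1397, 1386 and 1191 at a minimum of 20, 24, 20, 284 and 186 at 200, and 5471, 6031, 7030 and 8290 at 1. Depth limits the counts: Ifng in NK-like cells rests on 49 UMIs in NW and 36 in ABX, so that a difference within its interval was not detectable, and NW was the deeper library.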

Other observations

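Some Ifng lay in clusters without a name. Cluster T4, with 192 cells in NW and 243 in ABX, was led by Cd8b1, Cd8a, Klra9 and Cd4. It held 38 and 33 Ifng UMIs (25.04 and 22.0 CPM), its cells had a median of 7137.5 and 5711 UMIs, and 66.7% and 70.0% of them were among the highest doublet scores of their library. Cluster T12, with 45 and 99 cells led by Cd163l1 and Trdc, held 10 and 6 Ifng UMIs (236 and 46.6 CPM) at a median of 901 and 992 UMIs per cell. Cluster T7 held 28.1 and 6.07 CPM on 10 and 4 UMIs.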
